A study of Streblospio benedicti with 24 samples.

Results

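The genes described here are the 63 coding genes of *Streblospio benedicti* whose level was higher in every PP oocyte library than in any LL oocyte library. They were chosen from 26216 annotated genes, of which 20221 are coding and 5995 are non-coding by their identifier. A level is the number of counts on a gene per 1000000 counts on all genes of its library (CPM), a coding gene is one whose identifier lacks the non-coding mark, and a mean of at least 1 CPM over the PP libraries was required. The levels in the oocytes of F1 females were not used in the choice and are the main readout here.

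*S. benedicti* is a marine annelid with a developmental dimorphism. PP females come from a Bayonne, New Jersey population, produce small eggs and have planktotrophic (feeding) larvae, whereas LL females come from a Long Beach, California population, produce large eggs and have lecithotrophic (yolk-fed) larvae. PL and LP females are the reciprocal F1 crosses, named with the maternal allele first, so both are heterozygous and differ in the direction of the cross that made them. The females were lab-reared in isolation so that their oocytes were unfertilized, and each library holds the pooled oocytes of 1 female. There are 7 PP, 7 LL, 5 PL and 5 LP libraries. All 10 F1 libraries, PP replicate 7 and LL replicates 6 and 7 carry a label of 2 technical replicates, and the F1 libraries were sequenced separately from the others. PL replicates 3 to 5 share a letter in their sample IDs, as do LP replicates 1 to 3, and the sources used here do not say what the letter marks.

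The mother loads mRNA into the oocyte, and this maternal RNA directs the first cell divisions before the embryo's own genome is switched on. In a heterozygous female, an allelic difference that acts additively places the level of a transcript midway between the parental types, while a dominant one places it near one of them. Reciprocal F1 females carry the same alleles, so a gene whose level depends on which parent gave the allele will differ between PL and LP. None of the 63 genes is named in the sources used here. They are given by their identifiers, and no function or sequence is stated for them. For the same reason the oocyte label was not checked against marker genes.

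Counts on genes ranged from 7489256 in PL replicate 2 to 43609048 in PP replicate 3. Both CPM and TMM-scaled CPM are given below because PL replicates 3 to 5 differed in composition from PL replicates 1 and 2. In these libraries Sbene_G11295 took 11.8 to 20.3% and Sbene_G11297 took 5.24 to 6.91% of all counts, against 3.16 to 5.54% and 1.19 to 2.46% in PL replicates 1 and 2. Neither gene is one of the 63. Their TMM factors, which rescale a library by the bulk of its genes, were 0.786 to 0.862, so the CPM of most genes read low there. Over 9122 genes the median PL minus LP difference was −0.09 on log2 CPM and 0.06 on log2 TMM-scaled CPM. The share of reads assigned to no gene was 64.4 to 87.1% in PP, 68.9 to 81.6% in LL and 62.9 to 74.7% in the F1, with the highest value in PP replicate 2. The part of these differences in the results was not tested.

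The PP and LL levels follow from the rule and are given as a description only. The rule took 63 of the 8784 coding genes with a mean PP level of at least 1 CPM, or 0.717%. Their mean PP level ran from 1.62 to 3040 CPM with a median of 43.5 CPM, and the ratio of the PP to the LL mean ran from 1.33 to 36.8 with a median of 2.36. The ratio was under 1.5 for 7 genes, between 1.5 and 2 for 14, between 2 and 4 for 28 and at least 4 for 14. Ratios tended to be larger at low levels, though the largest, 36.8, was in Sbene_G11336 at a mean PP level of 27.0 CPM. The median ratio was 1.58 for the 16 genes with a mean PP level of at least 100 CPM, 2.43 for the 39 genes between 10 and 100 CPM and 8.43 for the 8 genes under 10 CPM.

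Many of the genes were separated by a narrow margin. The lowest PP level was under 1.1 times the highest LL level for 30 of the 63 genes and at least 2 times that level for 4. Just inside the rule, Sbene_G10333 had a lowest PP level of 93.7 CPM and a highest LL level of 93.2 CPM, and Sbene_G08279 had 0.381 and 0.378 CPM. Just outside it, Sbene_G11255 had a lowest PP level of 1649 CPM below a highest LL level of 1650 CPM, and Sbene_G12590 had 41.1 and 41.3 CPM. At the level threshold, Sbene_G03751 and Sbene_G08279 had mean PP levels of 1.62 and 1.72 CPM, and Sbene_G23795 and Sbene_G03469 fell outside with 0.801 and 0.746 CPM. Leaving out 1 PP or LL library gave a list of between 67 and 124 genes, with all 63 kept each time. This relaxes the rule, so the list could only grow unless a mean PP level fell under 1 CPM. The largest increases came without PP replicate 3 (124) and without PP replicate 2 (106), and on TMM-scaled CPM the list held 100 genes, of which 59 were among the 63.

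In total the 63 genes took 1.04 to 1.34% of the counts in the PP libraries and 0.620 to 0.749% in the LL libraries. Their summed level was 11909 ± 1225 CPM in PP (SD, n = 7) and 6701 ± 469 CPM in LL (SD, n = 7). In the F1 it was 9701, 8378, 9198, 8402 and 9556 CPM in PL replicates 1 to 5 and 10409, 8305, 8845, 9576 and 9907 CPM in LP replicates 1 to 5. Every F1 library lay above the highest LL library at 7493 CPM, and all but LP replicate 1 lay below the lowest PP library at 10366 CPM. The PL mean of 9047 ± 627 CPM and the LP mean of 9408 ± 839 CPM (SD, n = 5 each) differed by less than the spread within either cross, and on TMM-scaled CPM their order turned to 9888 ± 1934 in PL and 9088 ± 725 in LP. On that scale PL replicates 3 to 5 were at 11705, 10678 and 11083, inside the PP range of 10218 to 14310, and PL replicate 2 was at 6896, inside the LL range of 5399 to 7233. The other F1 libraries lay between the parental ranges.

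**Figure D1:**
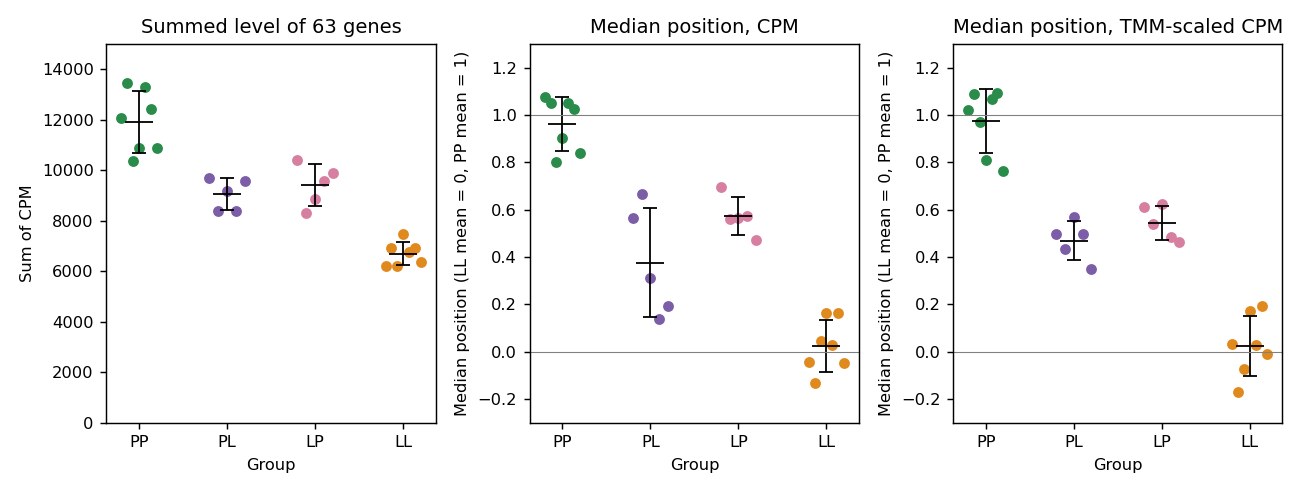
Summed level of the 63 genes (left, CPM) and their median position between the LL mean (0) and the PP mean (1) on log2 CPM (middle) and log2 TMM-scaled CPM (right), 1 point per library, with the mean and SD of each group as a bar and whiskers. PP and LL are apart by the choice of genes; in the middle panel PL replicates 3 to 5 sit at 0.314, 0.140 and 0.193, and in the right panel at 0.570, 0.498 and 0.349.

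A few abundant transcripts carried most of this sum, since the 5 most abundant genes held 66.0 to 71.3% of it in the PP libraries. Sbene_G10276 was the most abundant. Its level was 1948, 3131 and 4194 CPM (lowest, median and highest) in PP and 1059, 1638 and 1924 CPM in LL. In the F1 it was 2996, 1213, 2504, 2380 and 3234 CPM in PL and 3161, 1136, 2183, 2482 and 2896 CPM in LP. In each cross 4 of the 5 libraries lay inside the PP range, and replicate 2 of each lay inside the LL range. Without this gene the summed level was 8869 CPM in PP, 6581 in PL, 7037 in LP against 5187 in LL, so the order of the groups stayed.

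The next most abundant genes were spread more evenly. Sbene_G14613 was at 1736, 2082 and 2471 CPM in PP and 1170, 1272 and 1665 CPM in LL. It was at 1460, 1478, 2159, 1892 and 1868 CPM in PL and at 1443, 1478, 1717, 1951 and 1998 CPM in LP. Both crosses spanned the gap between the parental types, with 2 libraries of each inside the LL range. Sbene_G07890 had means of 1228 ± 385 CPM in PP, 918 ± 136 in PL, 876 ± 172 in LP against 699 ± 63.5 in LL, and Sbene_G19605 had means of 923 ± 209, 678 ± 130, 766 ± 72.3 and 547 ± 91.1 CPM (SD, n = 7, 5, 5 and 7). For Sbene_G06562 the means were 806 ± 90.8, 651 ± 59.1, 694 ± 59.3 and 601 ± 57.2 CPM in the same order. In these 3 genes both F1 means lay between the LL and the PP mean.

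The other 3 genes of the 8 most abundant varied more. Sbene_G12301 differed in how the crosses were placed, at 321, 414, 227, 210 and 238 CPM in PL and 387, 427, 400, 409 and 294 CPM in LP, beside 319 to 703 CPM in PP and 241 to 298 CPM in LL. PL replicates 3 to 5 were below every LL library on this scale, while 4 of the 5 LP libraries were inside the PP range. On TMM-scaled CPM, PL replicates 3 to 5 were at 289.0, 267 and 277, inside the LL range of 215 to 289.4. The log2 fold change of PL over LP for Sbene_G12301 was −0.33 (SE 0.15, adjusted p = 0.613, edgeR), which did not pass the test. Sbene_G04344 had means of 300.5 ± 49.8 CPM in PP, 273 ± 63.9 in PL, 310 ± 69.6 in LP against 211 ± 20.8 in LL. Sbene_G17790 had the widest range of the 8, with 86.4, 238 and 595 CPM in PP and 23.9, 58.1 and 85.3 CPM in LL. Its F1 levels of 164, 279, 114, 159 and 64.7 CPM in PL and 376, 407, 234, 116 and 116 CPM in LP were above every LL library except in PL replicate 5.

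To place the F1 between the parental types, each gene was given a position, the mean log2(CPM + 0.5) of the F1 group less that of LL, divided by the PP minus LL difference. A position of 0 is the LL mean and 1 the PP mean. Because the scale is log2, a gene whose level in CPM is midway between the parental types has a position above 0.5. The shift grows with the ratio of PP to LL. For example, Sbene_G11336 had means of 27.0 CPM in PP, 0.733 in LL and 15.4 over the F1, and its F1 position on CPM was 0.80. A position is thus not by itself a measure of additivity or dominance. The median position over the 63 genes was 0.31 in PL and 0.52 in LP on CPM, and 0.47 in PL and 0.50 in LP on TMM-scaled CPM. On the median of ratios scale, the other common scaling, it was 0.44 in PL and 0.50 in LP. The low PL value on CPM came with PL replicates 3 to 5, which had a median position of 0.22 together, against 0.56 in PL replicates 1 and 2. On TMM-scaled CPM these were 0.44 and 0.43. The PL and LP libraries overlapped on both scales, from 0.140 to 0.665 in PL and from 0.473 to 0.696 in LP on CPM, and from 0.349 to 0.570 and from 0.465 to 0.625 on TMM-scaled CPM.

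The parental ends were set by the rule, so these positions are a description and were not tested. The F1 libraries were sequenced separately, and the batch normalization of the authors was not repeated. Cross and sequencing run therefore cannot be told apart in these positions. The same holds for the summed levels and for the counts of genes with all F1 libraries above LL or below PP. Counted gene by gene, the mean of the 10 F1 libraries lay between the LL and the PP mean for 58 of the 63 genes on CPM and for 61 on TMM-scaled CPM. The libraries labelled as 2 technical replicates were set beside the F1 as a second pair of ends. Between the mean of LL replicates 6 and 7 and the level in PP replicate 7, the F1 mean lay for 49 genes on CPM and for 42 on TMM-scaled CPM. With these ends the median positions were 0.35 in PL and 0.51 in LP on CPM, and 0.43 and 0.51 on TMM-scaled CPM. Within the parental types themselves, PP replicate 7 had the lowest TMM-scaled median position of the PP libraries (0.764) and LL replicate 6 the highest of the LL libraries (0.192).

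The genes varied in where the F1 fell. On TMM-scaled CPM, the position of the 10 F1 libraries together was between 0.25 and 0.75 for 43 of the 63 genes, between 0 and 0.25 for 11, below 0 for 1, between 0.75 and 1 for 7 and above 1 for 1. On CPM the same counts were 37, 14, 4, 7 and 1. The 8 genes above 0.75 on the TMM scale were Sbene_G04233, Sbene_G13811, Sbene_G12054, Sbene_G04344, Sbene_G20911, Sbene_G11336, Sbene_G20253 and Sbene_G17790. On CPM the lowest 4 among genes of at least 5 CPM were Sbene_G11058, Sbene_G01951, Sbene_G06188 and Sbene_G05642. For comparison, the 99 coding genes that were higher in every LL library had median positions, with 0 again at the LL mean, of 0.37 in PL and 0.48 in LP on TMM-scaled CPM, and 0.46 and 0.47 on CPM. No difference between the lists was tested.

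**Figure D2:**
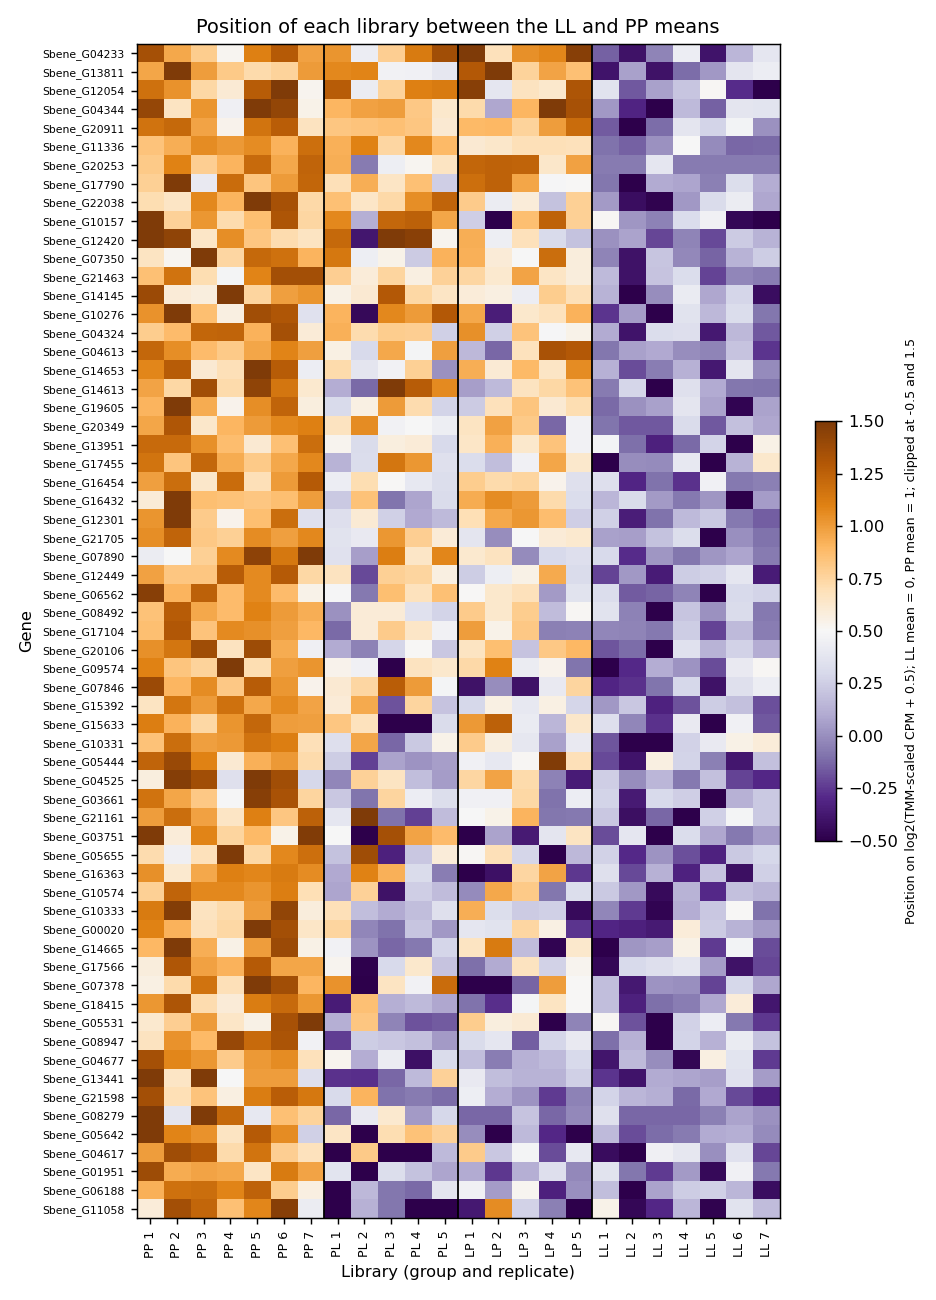
Position of each library (columns, by group and replicate) between the LL mean (0, purple) and the PP mean (1, orange) on log2(TMM-scaled CPM + 0.5) for the 63 genes (rows, ordered by the mean position of the 10 F1 libraries, clipped at −0.5 and 1.5). The PP block is mostly orange and the LL block mostly purple by the choice of genes; in the F1 blocks 43 rows average between 0.25 and 0.75.

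Few genes separated all 10 F1 libraries from a parental type. All F1 libraries were above all LL libraries for 4 of the 61 genes with a mean F1 or LL level of at least 1 CPM, against 0.138% of the 9436 coding genes of that level on CPM. The LL side of this count was used by the rule, so a share above the background follows in part from the choice. The 4 genes were Sbene_G04233, Sbene_G11336, Sbene_G20911 and Sbene_G21463. On TMM-scaled CPM there were also 4, with Sbene_G14145 in place of Sbene_G04233, against 0.17% of all. Taken alone, all 5 PL libraries were above all LL libraries for 8 genes (0.572% of all) and all 5 LP libraries for 9 (1.03% of all).

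Sbene_G04233 had the highest F1 position. Its level was 27.4, 45.4 and 65.5 CPM in PP (lowest, median and highest) and 9.37, 15.7 and 24.1 CPM in LL. In the F1 it was 48.5, 28.2, 27.2, 39.9 and 56.7 CPM in PL and 84.5, 32.5, 44.2, 51.0 and 75.6 CPM in LP. LP replicates 1 and 5 were above every PP library, and the lowest F1 library was just above the highest LL library. On TMM-scaled CPM, PL replicate 2 was at 23.2, within the LL range, whose highest value was 23.3.

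Sbene_G20911 and Sbene_G21463 were separated from LL on both scales. They lie outside the naming rule and were picked after their values were seen. Sbene_G20911 was at 12.7, 25.4 and 28.3 CPM in PP and 1.80, 6.08 and 11.01 CPM in LL, with 18.5, 21.4, 14.2, 13.6 and 11.3 CPM in PL and 20.3, 19.9, 15.3, 22.7 and 28.8 CPM in LP. All F1 libraries but PL replicate 5 were also inside or above the PP range. Sbene_G21463 was at 68.5, 132 and 205 CPM in PP and 23.7, 34.0 and 55.1 CPM in LL, with 101.2, 89.7, 71.2, 56.3 and 79.9 CPM in PL and 97.8, 80.9, 115, 84.6 and 74.8 CPM in LP. Here PL replicate 4 was close to the highest LL library and the other F1 libraries were in the lower part of the PP range. Sbene_G14145, named for the same reason, had means of 48.3 ± 24.5 CPM in PP, 33.8 ± 8.55 in PL, 31.8 ± 5.14 in LP against 17.8 ± 5.45 in LL.

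In the other direction, all 10 F1 libraries were below all PP libraries for 3 of the 63 genes on CPM, against 0.0432% of 9266 coding genes. The PP side of this count was used by the rule. The 3 genes were Sbene_G01951, Sbene_G04677 and Sbene_G06188. On TMM-scaled CPM there were 5, with Sbene_G08492 and Sbene_G08947 added, against 0.0648% of all. Without PL replicate 2 or without LP replicate 3 the count on CPM was also 5, though leaving out a library can only keep or raise it. All 5 PL libraries alone were below all PP libraries for 12 genes (0.529% of all) and all 5 LP libraries for 10 (0.302% of all).

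Sbene_G06188 had F1 levels like those of LL. It was at 16.8, 26.0 and 29.1 CPM in PP and at 6.03, 10.8 and 12.3 CPM in LL, with 5.50, 12.8, 6.55, 6.31 and 11.3 CPM in PL and 15.3, 10.002, 14.5, 6.82 and 9.26 CPM in LP. No F1 library reached the PP range, and 6 were within the LL range. PL replicate 2 and LP replicates 1 and 3 were above it, with LP replicate 1 nearer to the lowest PP library, and PL replicate 1 was below it. Sbene_G04677, which was picked after its values were seen, was at 45.7, 64.0 and 106 CPM in PP and at 9.33, 19.6 and 38.7 CPM in LL, with 37.5, 24.4, 23.9, 7.71 and 22.8 CPM in PL and 23.8, 16.7, 19.6, 22.8 and 26.5 CPM in LP. On CPM no F1 library left the LL range except PL replicate 4, which was below it. On TMM-scaled CPM, PL replicate 4 was at 9.80 and the lowest LL library at 9.01, so there no F1 library left the LL range.

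Sbene_G01951 and Sbene_G11058 had small ratios of PP to LL. Sbene_G01951 was at 131, 154 and 187 CPM in PP and 92.3, 111 and 128 CPM in LL, with 131, 100.4, 95.004, 90.1 and 94.3 CPM in PL and 119, 100.7, 107, 128 and 107 CPM in LP. Its highest F1 library, PL replicate 1 at 131.36 CPM, was only just under the lowest PP library at 131.40 CPM. Sbene_G11058, with the lowest F1 position, had means of 43.0 ± 3.85 CPM in PP, 25.8 ± 7.90 in PL, 33.0 ± 8.57 in LP against 32.4 ± 3.48 in LL. In PL its level was 26.5, 39.0, 23.4, 18.7 and 21.5 CPM, so all but replicate 2 were below every LL library (lowest 26.9 CPM). On TMM-scaled CPM its means were 44.3 in PP, 27.1 in PL, 31.9 in LP against 30.9 in LL.

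The reciprocal crosses were then compared with each other, the one contrast here that the rule did not touch. PL and LP were fitted with edgeR's quasi-likelihood test over 9074 genes, and a gene was called at an adjusted p under 0.1 (Benjamini-Hochberg) with a fold change over 1.5. Of the 62 genes tested (Sbene_G08279 did not pass the filter on low counts), 0 were called higher in PL and 0 higher in LP, against 0.0% of all genes in each direction. At an unadjusted p under 0.05 there were 2 genes higher in PL (3.58% of all genes) and 3 higher in LP (4.51% of all genes). With DESeq2's Wald test at the same thresholds, 1 gene was called higher in PL (0.942% of all) and 0 higher in LP (1.21% of all). DESeq2 gave an adjusted p to 62 of the 63 genes, 61 of them also tested by edgeR. It gave none to Sbene_G05444, because of 1 library with an extreme count, so the 0 higher in LP leaves that gene out. The one gene was Sbene_G11336. At an unadjusted p under 0.05 DESeq2 had 2 of the genes higher in PL (5.01% of all) and 2 higher in LP (6.11% of all). The shares among the genes tested by edgeR were thus near those of all genes.

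The sizes of these differences were small for most of the genes but not closely bounded. The median log2 fold change of PL over LP was −0.07 over the 62 genes and 0.05 over all 9074, and 37 of the 62 genes (59.7%) were higher in LP, against 46% of all genes. The median SE was 0.33. The 95% interval lay within a 1.5-fold change in either direction for 7 of the 62 genes and within a 2-fold change for 34. For the rest the interval reached beyond a 2-fold change, so a difference of that size was not excluded. The spread between F1 libraries on log2 TMM-scaled CPM had a median SD of 0.53 in PL, beside 0.52 over all genes, and 0.43 in LP, beside 0.61 over all genes.

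**Figure D3:**
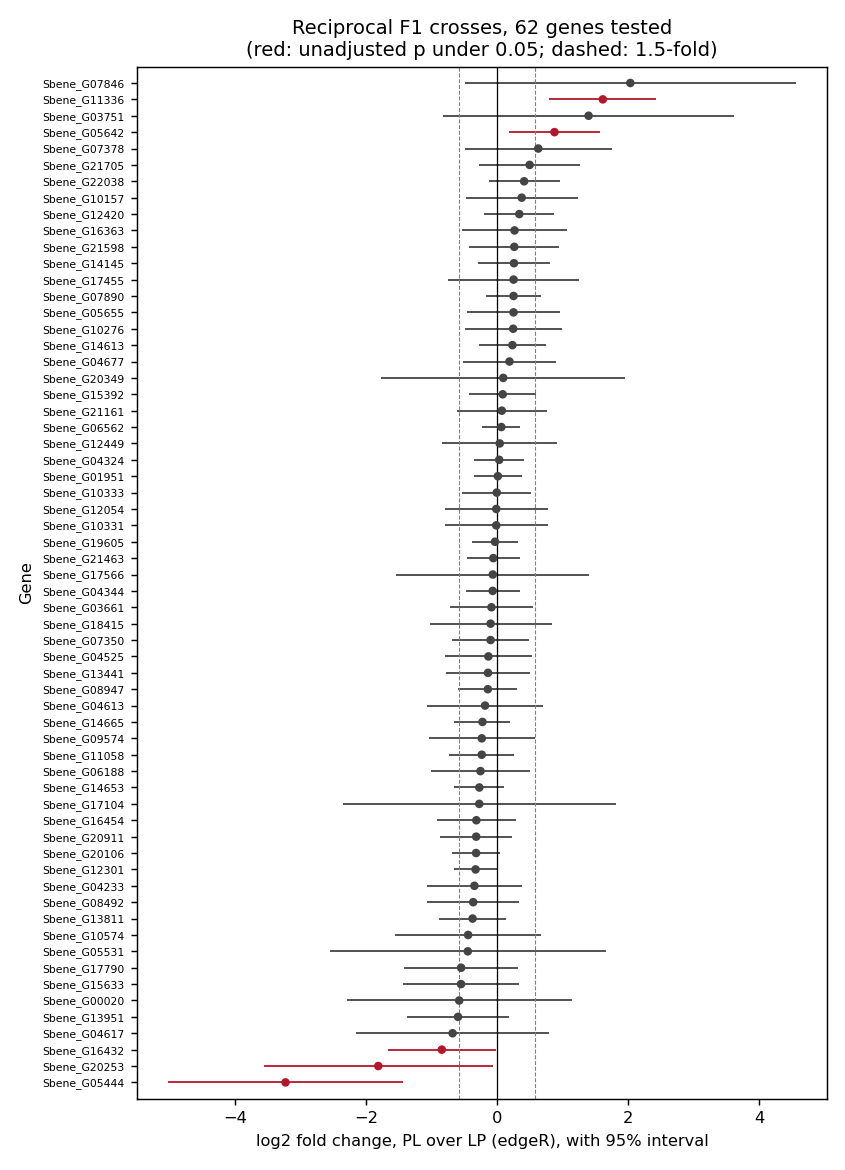
Log2 fold change of PL over LP with its 95% interval (edgeR, 5 PL against 5 LP libraries) for the 62 genes tested, ordered by size, with dashed lines at a 1.5-fold change. Red marks the 5 genes with an unadjusted p under 0.05; none passed the adjusted threshold, and 37 of 62 points lie left of 0.

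The 4 genes with the smallest p between the crosses were Sbene_G11336, Sbene_G05444, Sbene_G05642 and Sbene_G20253. Sbene_G11336 was at 14.7, 27.9 and 51.5 CPM in PP and was near 0 in LL, with a highest level of 4.23 CPM in LL replicate 4 and at most 0.422 CPM in the other LL libraries. It was at 21.1, 43.9, 8.07, 26.4 and 14.9 CPM in PL and at 6.83, 7.33, 8.11, 9.02 and 8.40 CPM in LP. Each F1 library was above every LL library, each LP library was below every PP library, and each PL library but replicate 3 was above every LP library. On TMM-scaled CPM, PL replicate 3 was at 10.3 and the highest LP library at 8.55, so there the crosses did not overlap. Its log2 fold change of PL over LP was 1.61 (SE 0.37, adjusted p = 0.374, edgeR), and DESeq2 gave 1.59 with an adjusted p of 0.00976. Summed by the letter in the sample IDs, which leaves 3 PL and 3 LP samples, it was 1.58 (adjusted p = 0.9999, edgeR). It was the one gene of the 62 with all PL above all LP libraries on that scale, against 0.76% of all genes.

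Sbene_G05444 was arranged the other way. It was at 5.70, 12.4 and 29.9 CPM in PP and 0.164, 0.921 and 5.57 CPM in LL, with 2.28, 0.534, 1.02, 0.876 and 1.09 CPM in PL and 3.97, 3.40, 4.03, 41.6 and 6.61 CPM in LP. All LP libraries were above all PL libraries, which held for no other gene of the 62 (0.838% of all genes on CPM). The PL libraries and LP replicates 1 to 3 stayed within the LL range, and LP replicates 4 and 5 were above it. Its log2 fold change of PL over LP was −3.23 (SE 0.82, adjusted p = 0.413, edgeR). LP replicate 4 was far above the other LP libraries, and without it the log2 fold change was −1.81 (adjusted p = 0.274, edgeR).

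In Sbene_G05642 the LP libraries were within or below the LL range. It was at 37.4, 58.5 and 96.9 CPM in PP and 27.9, 30.6 and 32.8 CPM in LL, with 50.3, 22.2, 38.6, 42.7 and 44.2 CPM in PL and 31.2, 16.4, 31.5, 24.4 and 19.5 CPM in LP. All PL libraries but replicate 2 were above every LP library, and its log2 fold change was 0.87 (SE 0.32, adjusted p = 0.559, edgeR). Sbene_G20253, a gene of low level, was at 2.02, 3.24 and 6.70 CPM in PP and had no count in 6 of the 7 LL libraries, with 0.843 CPM in LL replicate 3. It was at 3.43, 0, 0.691, 0.876 and 1.43 CPM in PL and 6.83, 6.87, 6.14, 1.64 and 3.66 CPM in LP. LP replicates 1 to 3 stood at the top of the PP range or above it while 4 PL libraries were under every PP library, with a log2 fold change of −1.81 (SE 0.80, adjusted p = 0.603, edgeR). LP replicates 1 to 3 share a letter in their sample IDs, and with the libraries summed by letter the log2 fold change was −1.37 (adjusted p = 0.9999, edgeR). Neither of these differences passed the test.

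**Figure D4:**
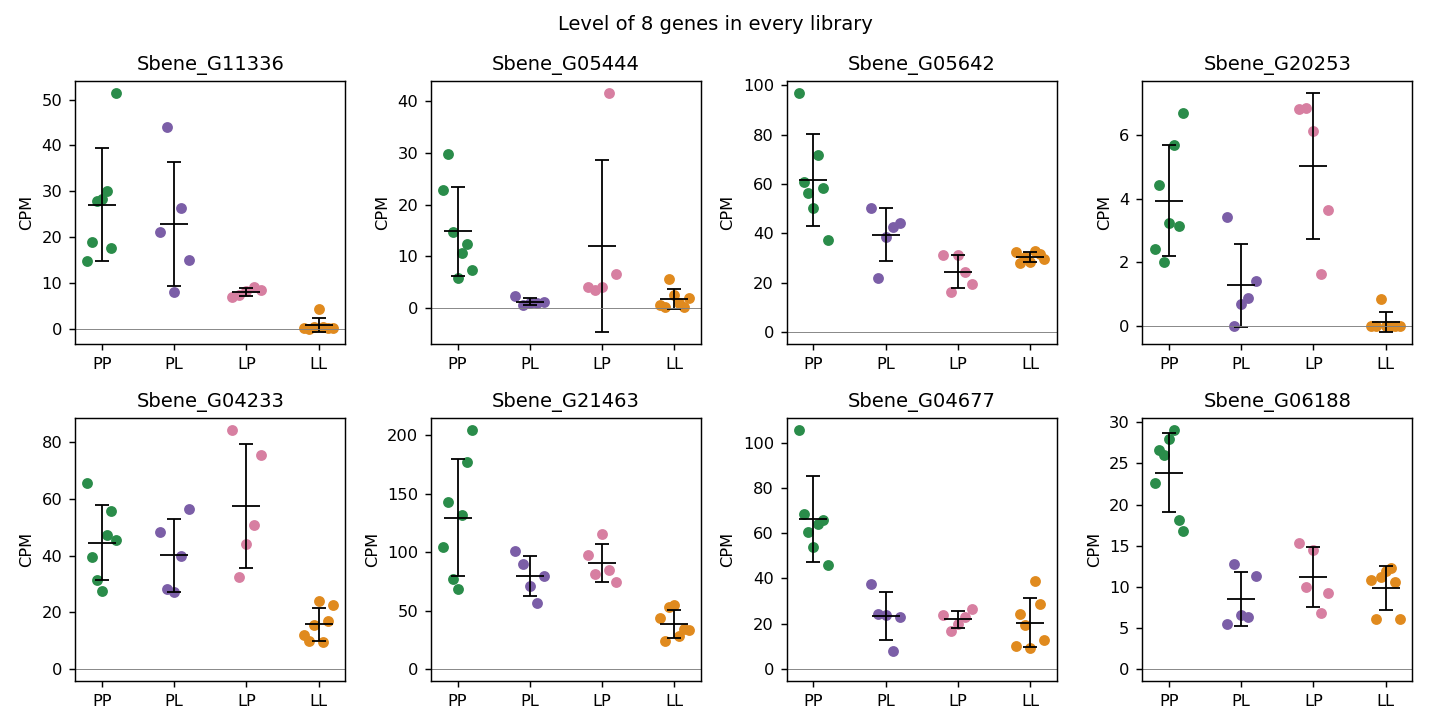
Level (CPM) of 8 genes in every library of PP, PL, LP and LL, with the mean and SD of each group as a bar and whiskers. The upper row shows the 4 genes with the smallest p between PL and LP, none of them called by edgeR; the lower row shows 2 genes whose F1 libraries were all above LL (Sbene_G04233, Sbene_G21463) and 2 whose F1 libraries were all below PP (Sbene_G04677, Sbene_G06188).

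Some of the widest gaps between PP and LL were found in genes that were nearly silent in LL. Sbene_G17104 had the widest, with 5.98, 9.01 and 20.3 CPM in PP and 0.0512, 0.378 and 1.24 CPM in LL. In the F1 it was at 0.208, 4.27, 4.77, 3.15 and 2.08 CPM in PL and 10.8, 3.13, 5.9995, 0.345 and 0.359 CPM in LP. PL replicate 1 and LP replicates 4 and 5 were within the LL range and the other F1 libraries were above it. Sbene_G20349 was at 2.04, 5.27 and 10.3 CPM in PP and at most 0.928 CPM in LL, where 3 libraries had no count. Its F1 levels were 2.60, 7.61, 1.12, 1.23 and 1.15 CPM in PL and 2.62, 5.47, 3.33, 0.0432 and 1.44 CPM in LP, above every LL library except in LP replicate 4. In Sbene_G17104 the LP libraries ran from the LL range into the PP range, while no PL library reached the lowest PP level. In Sbene_G20349 both crosses had libraries inside the PP range, and LP also had 1 inside the LL range.

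Other genes with a wide gap were expressed in all LL libraries. Sbene_G21705 had means of 68.7 ± 16.46 CPM in PP, 37.3 ± 11.2 in PL, 30.1 ± 9.69 in LP against 16.3 ± 6.37 in LL (SD, n = 7, 5, 5 and 7). Sbene_G08492 had means of 16.9 ± 2.72, 7.91 ± 3.01, 11.2 ± 3.02 and 5.80 ± 2.02 CPM in the same order. Sbene_G10574 was at 17.7 to 31.5 CPM in PP and 4.07 to 8.97 CPM in LL, with 7.89, 22.3, 2.93, 7.27 and 7.16 CPM in PL and 6.98, 24.7, 18.5, 6.17 and 10.5 CPM in LP. Its F1 libraries divided, with PL replicate 2 and LP replicates 2 and 3 inside the PP range and PL replicate 3 below LL. On TMM-scaled CPM, PL replicate 3 was at 3.73, just above the lowest LL library at 3.53. Sbene_G04613 was at 16.46 to 25.2 CPM in PP and 6.78 to 10.6 CPM in LL, with 10.2 to 17.4 CPM in PL and 7.87 to 28.8 CPM in LP, and LP replicates 4 and 5 were above every PP library.

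Among the genes with high F1 positions, the crosses were alike in Sbene_G12054 and less so in Sbene_G13811. Sbene_G12054 was at 41.1 to 114 CPM in PP and 10.8 to 40.03 CPM in LL, with 90.3, 42.3, 39.0, 55.7 and 62.7 CPM in PL and 112, 35.1, 43.1, 45.5 and 90.8 CPM in LP, and its log2 fold change of PL over LP was −0.01 (95% interval −0.80 to 0.78). Sbene_G13811 was at 56.6 to 99.5 CPM in PP and 32.3 to 52.8 CPM in LL. It was at 78.3, 89.9, 41.1, 41.0 and 43.3 CPM in PL and 89.4, 121, 59.2, 73.0 and 66.6 CPM in LP, so that every LP library was inside or above the PP range and PL replicates 3 to 5 were inside the LL range. On TMM-scaled CPM, PL replicates 3 and 4 were at 52.3 and 52.1, just above the highest LL library at 51.5. PL replicate 5 was inside the LL range there, at 50.2. The log2 fold change of PL over LP for Sbene_G13811 was −0.38 (95% interval −0.88 to 0.13).

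At the low end of the list the counts limit what can be said. Sbene_G08279 was at 0.381 to 4.13 CPM in PP and at most 0.378 CPM in LL, and in the F1 it was at 0, 0.534, 0.560, 0.0876 and 0.279 CPM in PL and 0, 0, 0.234, 0 and 0.0718 CPM in LP. Sbene_G03751 was at 0.763 to 3.07 CPM in PP and at most 0.736 CPM in LL, with means of 0.966 ± 0.634 CPM in PL and 0.438 ± 0.418 CPM in LP. In all, 7 of the 63 genes had no count in at least 1 LL library and 5 had none in at least 1 F1 library. No gene of the 63 was without a count in every LL or every F1 library.

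Among the 63 genes, 2 pairs had identifier numbers that differed by 5 or less. Such pairs were not counted over all genes, so whether this is few or many was not tested. The sources used here do not say whether the numbers follow the order on the chromosomes. In the pair Sbene_G10331 and Sbene_G10333 the first had means of 38.9 ± 6.25 CPM in PP, 21.6 ± 14.4 in PL, 22.8 ± 7.45 in LP against 15.7 ± 8.45 in LL, and the second had 130 ± 29.1, 78.0 ± 24.05, 85.9 ± 31.1 and 70.2 ± 13.1 CPM. Both had the F1 means of either cross nearer to LL than to PP. In the pair Sbene_G04613 and Sbene_G04617 the second was at 9.25 to 20.3 CPM in PP and 1.64 to 7.49 CPM in LL, with 1.04, 12.7, 1.25, 1.05 and 3.78 CPM in PL and 11.2, 5.001, 6.52, 2.72 and 6.25 CPM in LP. Its F1 position was 0.08 on TMM-scaled CPM, whereas that of Sbene_G04613 was 0.66.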

How the data were processed

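The authors deposited whole-number counts per gene for each library. According to the methods, reads from a stranded kit were trimmed, rRNA reads were removed with SortMeRNA, the alignment target was the planktotrophic genome, HISAT2 was the aligner and HTSeq-count made the counts. The versions are not given in the sources used here. The batch normalization of the authors (RUVg) was not repeated. No 2 of 62 replicate pairs agreed within sampling noise (lowest chi-square per gene 57.8), so no library was counted as a duplicate.

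CPM was computed over all genes. TMM factors, filtering by filterByExpr and the quasi-likelihood test of PL against LP on the 10 F1 libraries were run in edgeR 4.0.16 under R 4.3.3. DESeq2 1.42.0 was an alternative. Log2 levels had a pseudocount of 0.5 CPM. PP against LL was not tested, since it chose the genes. The genes and rules were chosen with earlier results of these data known.

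Named genes were the 8 most abundant, the 8 with the widest gap between PP and LL relative to the highest LL level, the 4 with the smallest p between PL and LP, the 4 highest and 4 lowest F1 positions at 5 CPM or more, ordered on CPM, and those at the thresholds. Others are marked in the text as chosen after their values were seen, or stand in the lists by scale, position or identifier. Each library is 1 clutch, so p-values measure the spread between clutches. If clutches that share a sample ID letter (LP replicates 1 to 3, PL replicates 3 to 5) are related, the libraries are not independent and the p-values are too small.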

Additional observations from a re-analysis of the deposited data

Results flagged for a closer look

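In 116 groups of values (the named genes in each group of libraries), the highest or lowest library was set against the others of its group on log2 CPM, and 10 stood apart. Chance flags about 1 in 20 such groups. In PP, Sbene_G12301 was at 703 CPM in replicate 2 and 319 to 424 CPM in the others. In LL, Sbene_G06562 was at 482 CPM in replicate 5 (others 581 to 646 CPM) and Sbene_G11336 at 4.23 CPM in replicate 4 (others 0 to 0.422 CPM). LL replicate 3 stood apart in both Sbene_G20253, at 0.843 CPM (others 0), and Sbene_G08492, at 2.11 CPM (others 4.83 to 8.03 CPM). Sbene_G08279 was at 0.378 CPM in LL replicate 1 (others 0 to 0.136 CPM).

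In the F1, Sbene_G01951 was at 131 CPM in PL replicate 1 (others 90.1 to 100.4 CPM). Sbene_G19605 was at 639 CPM in LP replicate 1 (others 777 to 810 CPM), Sbene_G12301 at 294 CPM in LP replicate 5 (others 387 to 427 CPM) and Sbene_G05444 at 41.6 CPM in LP replicate 4 (others 3.40 to 6.61 CPM).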

How the results depend on the processing

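The 0 calls between PL and LP stayed at 0 in each direction under every alternative but DESeq2. DESeq2 called 1 gene higher in PL (Sbene_G11336, log2 fold change 1.59, adjusted p = 0.00976). The main edgeR fit called 0 of all 9074 genes, so these 0 calls do not show that the crosses were alike in the 63 genes. With the F1 libraries summed by sample ID letter (3 PL and 3 LP samples) there were 0 and 0 calls, and the 4 genes with the smallest p had an adjusted p of 0.9999 (edgeR). With the replicate number as a block there were 0 and 0 calls. Same-numbered PL and LP libraries had correlations of their deviations from −0.07 to 0.26, not all over 0.1, so the numbers were not taken to pair the samples, and the same number was the best match for 2 of the 5. The number of genes moved from 63 to 100 on TMM-scaled CPM and to 86 on the median of ratios. It was 152 without the 3 PP and LL libraries labelled as 2 technical replicates. When 1 PP or LL library was left out it ranged from 67 to 124. Leaving out such libraries relaxes the rule, so these longer lists follow at least in part from that. Leaving out 1 F1 library gave median positions of 0.26 to 0.41 in PL and 0.46 to 0.54 in LP, 4 to 6 genes with all F1 above LL and 3 to 5 with all F1 below PP, which was 5 on TMM-scaled CPM. An alternative chosen after seeing the data left out PL replicates 3 to 5, whose sample IDs share a letter. There the median position of PL was 0.56 and 8 genes had all F1 above LL. Leaving out F1 libraries can only keep or raise the counts of genes with all F1 above LL or below PP. Summed levels without Sbene_G10276 were 8869 CPM in PP, 7037 in LP, 6581 in PL and 5187 in LL, and the TMM-scaled PL sum was 9888. Of 181 values under alternatives, 165 were labelled the same as the main value, 14 moved and 2 stronger. The label is loose, since the 94 genes without LL replicate 4 were labelled the same as 63. Many of the 165 are 0 calls set against 0 calls. The depth of PL replicate 2, the lowest, and the spread between clutches limit what a comparison of PL with LP can show.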
